A study of Mus musculus with 12 samples.

Results

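The 35 genes described here encode enzymes and regulators of sterol, fatty acid and phospholipid synthesis. They were chosen by symbol as members of these pathways, not by their values in a comparison, and all 35 were present among the 23238 gene symbols measured. RNA was sequenced from cells sorted as alveolar type II (ATII) cells of mice, in 4 groups of 3 libraries with 1 mouse per cell isolation. Con mice carried p300 in their ATII cells and received PBS. BLM mice had the same p300 status and received 4 mg/kg bleomycin (BLM) into the trachea, an injury that causes lung fibrosis. KO mice lacked p300, an acetyltransferase that coactivates transcription, in ATII cells and received PBS, and KOBLM mice were KO mice given the same dose of BLM. The deletion used p300 alleles with loxP sites around exon 9 and Cre recombinase driven by the Spc promoter (Spc-CreERT2), which is active in ATII cells, so other cells of the same lungs kept p300. The labels give 1 protocol for all 12 libraries, with 10 mg/kg tamoxifen to mice at 8 weeks of age. For another assay on ATII cells of Spc-p300 f/f mice, the study set vehicle against tamoxifen, and which of these the Con and BLM mice sequenced here received was not stated for these libraries. The study calls their controls Spc-p300 f/f mice in one place and C57BL/6 mice in another.

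Cells make cholesterol from acetyl-CoA through mevalonate and squalene, and they make fatty acids from the same precursor by carboxylation, chain extension, desaturation and elongation. The genes of both routes share SREBP transcription factors, which SCAP carries from the endoplasmic reticulum when sterols are scarce and which INSIG proteins hold back when sterols are plentiful. In the lung, ATII cells use fatty acids and choline to make the phosphatidylcholine of surfactant, the film that lowers surface tension in the alveoli, and alveolar macrophages take up and break down spent surfactant lipid.

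The DNA sequence bound by SREBP is shown first because SREBPs control genes of both routes. A sterol regulatory element core, TCACNCCAC, was searched on both strands in windows from 250 bases before to 50 bases after the transcription start (RefSeq, GRCm38.p6), which were available for 29 of the 35 genes. It occurred in 2 of these 29 genes (6.9%), Hmgcs1 and Pcyt1a, against 1.44% of the 27025 genes with a window. Only this core was searched, so variants of the element were not counted, and most of the 29 genes held no match. The 2 sites are printed 5′ to 3′ on the gene strand with the core in capitals, at chr13:119690204-119690232 for Hmgcs1 and at chr16:32430795-32430823 for Pcyt1a.

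Hmgcs1: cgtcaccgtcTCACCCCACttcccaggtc

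Pcyt1a: ttcggctcagTCACCCCACgcgcccggcc

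The whole window of Hmgcs1, on the plus strand at chr13:119690101-119690400, shows this core among the other letters of the promoter.

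Hmgcs1 promoter: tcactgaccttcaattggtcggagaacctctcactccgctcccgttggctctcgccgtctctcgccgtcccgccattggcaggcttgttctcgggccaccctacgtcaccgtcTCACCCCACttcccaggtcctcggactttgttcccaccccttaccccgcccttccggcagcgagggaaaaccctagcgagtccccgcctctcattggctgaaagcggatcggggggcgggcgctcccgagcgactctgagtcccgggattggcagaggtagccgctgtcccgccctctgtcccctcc

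The CCAAT box, bound by NF-Y, occurred on either strand in 23 of the 29 genes (79.3%) against 41.1% of all genes with a window. The GC box GGGCGG, bound by SP1, occurred in 24 of the 29 (82.8%) against 38.2% of all. These matches describe letters in a window and do not show binding.

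The libraries held 7005005 to 11153154 counts and were read from the 3′ ends of transcripts. Values are given as CPM, the counts of a gene per 1000000 counts of its library, and a floor of 3 counts, equal to 0.269 to 0.428 CPM, was set for detection. This floor covers counting error only. The markers of ATII cells were low against those of macrophages. The 12 ATII markers summed to 183.9 to 2188.0 CPM per library and the 16 macrophage markers to 1254.9 to 44952.5 CPM, and the macrophage sum was the larger in every library. These sums cover unlike lists of genes and do not give shares of cells. Sftpc, the surfactant protein that defines ATII cells, ranged from 0.6 to 611.7 CPM. Among genes of surfactant phosphatidylcholine, Lpcat1, which remodels it in ATII cells, was at or below 0.4 CPM in every library. The cells are therefore called sorted cells below.

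Several libraries stood apart from the others of their group. Counts fell on the fewest genes in Con 3 (10246), BLM 3 (6847), KO 3 (8790) and KOBLM 2 (9018), against 11139 to 13838 in the others. In these libraries 26.6, 53.9, 37.4 and 36.4% of all tested genes were at or under the floor, against 7.08 to 21.7% elsewhere. In BLM 3, the summed pluripotency genes reached 2671.8 CPM against 0.6 to 24.7 CPM elsewhere. Siglecf, a surface marker of resident alveolar macrophages, was 203.4, 8.9 and 399.7 CPM in KO 1, 2 and 3 and 26.4, 251.4 and 23.8 CPM in KOBLM 1, 2 and 3, so that KO 2 was the low library of its group and KOBLM 2 the high library of its group. Siglecf was 175.2 to 197.6 CPM in Con and 0 to 32.3 CPM in BLM. Ep300, the gene of p300, was 141.2, 143.4 and 51.0 CPM in Con, 118.8, 90.5 and 42.6 CPM in BLM, 145.4, 153.5 and 103.0 CPM in KO, and 169.4, 54.2 and 96.0 CPM in KOBLM. It was not lower in KO than in Con (log2 fold change 0.39, SE 0.69, edgeR adjusted p = 1), and because the kit reads the transcript's 3′ end rather than exon 9 this does not check the deletion. The study itself reported a check of the deletion by qRT-PCR in isolated ATII cells and by co-immunofluorescence in lungs.

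The 35 genes together took 0.133 to 0.325% of the counts. Their sum was 1840 ± 210 CPM in Con, 2130 ± 998 in BLM, 1780 ± 166 in KO and 1780 ± 468 in KOBLM (mean ± SD, n = 3 each). The highest sum, 3249.5 CPM, was that of BLM 3, and the other 11 libraries lay between 1334.3 and 2279.8 CPM. A lower level in a sorted sample cannot be told apart from fewer cells of the type that makes the transcript. The kit primes each transcript once at its 3′ end, so CPM was compared between genes without a correction for length. By the mean over 12 libraries, the most abundant genes were Elovl5 (156 CPM), Acly (146), Elovl1 (139), Hmgcs1 (137), Msmo1 (134) and Scap (113), and the least abundant were Fads2 (0.0886) and Gpam (1.91). In all 12 libraries, 18 of the 35 genes were above the floor. Fads2, which desaturates polyunsaturated fatty acids, was at 0 in 10 libraries and had 4 counts in each of BLM 2 and KOBLM 1, so it was the single gene left out of the tests, which covered 34 of the 35 genes.

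**Figure D1:**
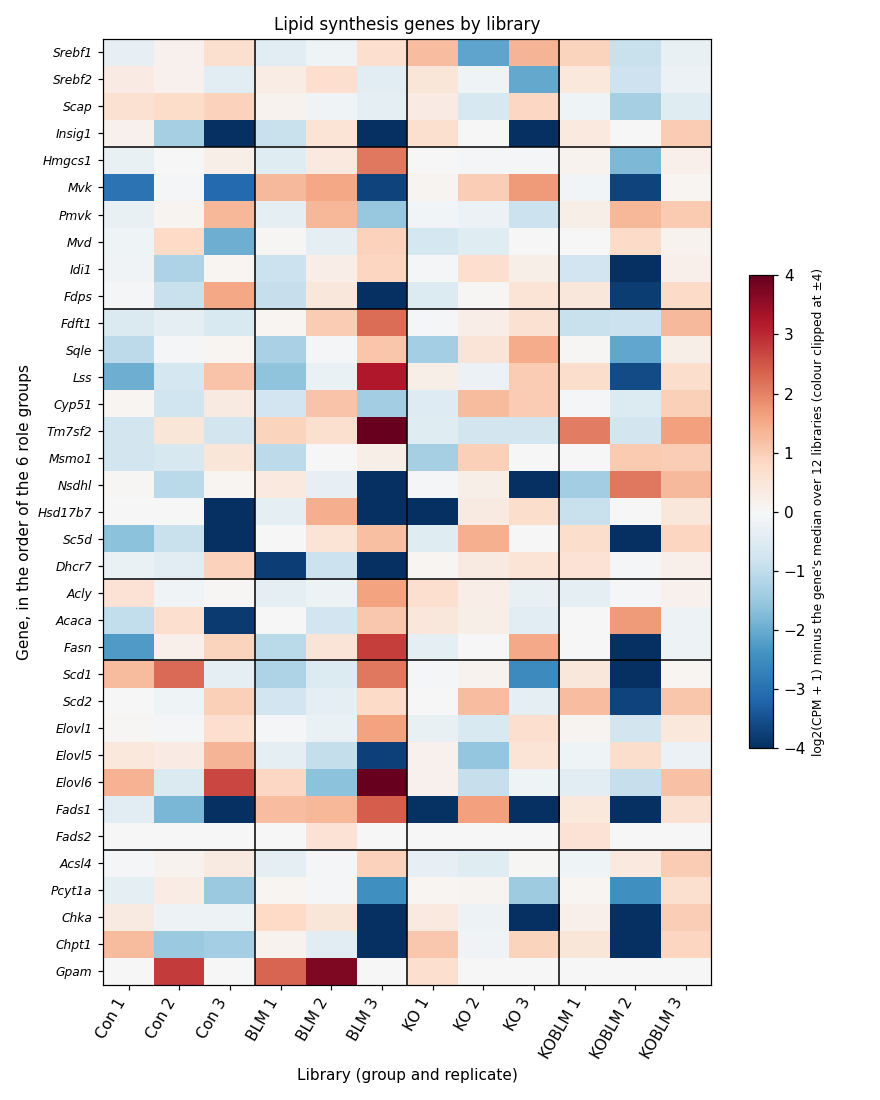
Colour gives log2(CPM + 1) of each of the 35 genes (rows, in 6 groups by role) minus that gene's median over the 12 libraries (columns), from blue (lower) to red (higher). Red and blue cells are mixed within each of the 4 treatment groups, and Elovl5 and Scap are those of the 6 most abundant genes whose 3 BLM libraries are all lower than the 3 Con libraries.

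Among the regulators, Scap was the gene whose libraries did not overlap between Con and BLM. Scap, the sterol sensor that escorts SREBPs, was 152.2, 166.2 and 192.0 CPM in Con, 110.5, 90.1 and 76.6 CPM in BLM, 125.9, 63.6 and 177.5 CPM in KO, and 88.6, 39.0 and 71.4 CPM in KOBLM. All 3 BLM libraries were below all 3 Con libraries, and KO 2 was the only KO library as low as the BLM groups. The difference between BLM and Con did not pass the test (log2 fold change -0.84, SE 0.57, 95% interval -2.07 to 0.39, edgeR p = 0.165, exact permutation p = 0.1). Srebf1, which mainly drives fatty acid synthesis genes, was 30.2, 42.6 and 60 CPM in Con and 27.4, 33.9 and 61.3 CPM in BLM. It was 90.5, 8.1 and 99.4 CPM in KO and 71.7, 20.1 and 30.6 CPM in KOBLM. The Con and BLM ranges of Srebf1 nearly coincided, and KO held both the highest and the lowest library of the 12. Srebf2, which mainly drives sterol genes, was 57.6, 50.8 and 33.5 CPM in Con and 56.1, 72.3 and 33.6 CPM in BLM. It was 63.2, 40.5 and 10.3 CPM in KO and 61.2, 24.9 and 38.6 CPM in KOBLM. The 4 groups overlapped for Srebf2, and its lowest value in each group was that of the library with counts on the fewest genes. Insig1, the anchor that retains SCAP and is itself an SREBP target, was 23.7, 7.9 and 0 CPM in Con, 11, 31.1 and 0 CPM in BLM, 33.3, 21.0 and 0 CPM in KO, and 27.8, 21.3 and 43.7 CPM in KOBLM. It was at 0 in Con 3, BLM 3 and KO 3, each the library of its group with counts on the fewest genes. KOBLM 2, the corresponding library of KOBLM, was not at 0 (21.3 CPM), and KOBLM 3 had the highest value of the 12. The part of this in the zeros was not tested. Intervals for BLM against Con were -2.12 to 1.82 for Srebf1, -1.64 to 2.16 for Srebf2 and -4.22 to 5.39 for Insig1 (log2), so large differences in either direction were not resolved.

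In the mevalonate pathway, Hmgcs1 encodes the synthase that makes HMG-CoA. It was 89.5, 110.7 and 130.5 CPM in Con, 79.1, 144.8 and 484.6 CPM in BLM, 111.8, 107.9 and 105.8 CPM in KO, and 122.2, 31.1 and 128.3 CPM in KOBLM. The 3 KO libraries were nearly equal, whereas BLM 3 was the highest and KOBLM 2 the lowest of all 12. BLM and Con did not differ beyond this spread (log2 fold change 0.99, SE 0.69, 95% interval -0.49 to 2.46, edgeR p = 0.173, exact permutation p = 0.5). The other 5 genes of the pathway, Mvk, Pmvk, Mvd, Idi1 and Fdps, encode the kinases, decarboxylase, isomerase and prenyl synthase that follow, and their highest value was 68.7 CPM. Mvk, the mevalonate kinase, was 0.7, 11.4 and 0.5 CPM in Con, 31.3, 37.2 and 0 CPM in BLM, 13.0, 24.9 and 41.4 CPM in KO, and 11.1, 0 and 12.7 CPM in KOBLM. All KO libraries were above all Con and all KOBLM libraries, with no p under the threshold (edgeR p = 0.263 against Con and 0.466 for KOBLM against KO, exact permutation p = 0.1 for each).

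In the sterol branch, Fdft1 rose with BLM by the threshold used here. Fdft1, the squalene synthase that commits farnesyl diphosphate to sterols, was 38.4, 44.3 and 37.6 CPM in Con, 60.8, 116.0 and 275.7 CPM in BLM, 54.0, 69.1 and 88.4 CPM in KO, and 30.5, 31.2 and 141.2 CPM in KOBLM. All BLM and all KO libraries were above all Con libraries, and KOBLM held both lower and higher values. The log2 fold change of BLM against Con was 1.83 (SE 0.77, 95% interval 0.17 to 3.49, edgeR p = 0.0331, exact permutation p = 0.1), with a Benjamini-Hochberg adjusted p of 0.995 over all tested genes. An exact permutation test of 3 against 3 libraries cannot give a p below 0.1. When single libraries of the 2 groups were left out, the log2 fold change lay between 1.30 and 2.17, and the call held in 1 of 6 fits, that without BLM 1. It was 1.30 without BLM 3, no longer past the threshold. Fdft1 lies at chr14:63145150-63179578 on the minus strand (GRCm38) with 10 exons. Its last 500 bases overlap Ctsb, the cathepsin B gene on the other strand. Genes on the other strand also overlap the last 500 bases of Srebf1, Mvd, Lss, Cyp51, Elovl1, Pcyt1a and Chpt1, and a gene on the same strand overlaps those of Fdps. The part of these genes in the counts was not tested. The use of strand in counting was not given, and Ctsb, at 266.7 to 3202.4 CPM over the 12 libraries, had a log2 fold change of 0.18 for BLM against Con and 1.11 for KO against Con (edgeR adjusted p = 1 for each). The highest Ctsb value, 3202.4 CPM, was that of KOBLM 3, which was also the KOBLM library with the high Fdft1 value of 141.2 CPM. The lowest, 266.7 CPM, was that of BLM 3, which had the highest Fdft1 value of the 12 libraries, 275.7 CPM. In KO 2, Ctsb was 2599.8 CPM and Fdft1 69.1 CPM. The part of Ctsb reads in the Fdft1 counts was not tested.

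Msmo1, the methylsterol monooxygenase, was the most abundant gene of the sterol branch. It was 70.4, 75.2 and 164.6 CPM in Con, 56.7, 117.8 and 138.6 CPM in BLM, 46.1, 227.4 and 118.4 CPM in KO, and 115.9, 245.0 and 232.6 CPM in KOBLM. The means of 103 ± 53.1 CPM in Con and 104 ± 42.6 CPM in BLM were close together, with an interval of the log2 fold change from -1.44 to 1.47, and the KOBLM mean was 198 ± 71.2 CPM. A log2 fold change of 1.04 for KOBLM against BLM did not pass the test (edgeR p = 0.154, exact permutation p = 0.3).

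The next 5 genes, Sc5d, Dhcr7, Tm7sf2, Pmvk and Mvd, are named because their libraries did not overlap between a pair of groups, and they were chosen after their values were seen, as were Mvk above and Fads1 below. Sc5d, the lathosterol desaturase, was 7.8, 13.9 and 0 CPM in Con, 26.3, 39.2 and 62.2 CPM in BLM, 18.7, 73.2 and 26.8 CPM in KO, and 43.8, 0.1 and 49.3 CPM in KOBLM. All libraries of BLM and of KO were above those of Con (log2 fold changes 2.49 and 2.61, edgeR p = 0.183 and 0.166, exact permutation p = 0.1 for each). Dhcr7, the reductase of the last step to cholesterol, was 20.3, 18.1 and 47.8 CPM in Con, 0.9, 13.2 and 0 CPM in BLM, 26.2, 32 and 36.8 CPM in KO, and 37.7, 23.5 and 28.9 CPM in KOBLM. BLM was the low group for Dhcr7, below each of the other 3 groups in every library, and neither comparison with BLM passed the test (log2 fold change -2.40, edgeR p = 0.158 for BLM against Con, and 2.60, edgeR p = 0.132 for KOBLM against BLM, exact permutation p = 0.1 for each). Tm7sf2, a sterol reductase, was between 0 and 5.8 CPM in 11 libraries and 73.3 CPM in BLM 3. It had 0, 12 and 0 counts in Con and 15, 12 and 817 counts in BLM. Con 2 and BLM 2 thus had equal counts, and their CPM of 1.3 and 1.6 differed by library size alone. Pmvk, the phosphomevalonate kinase, was 19.9, 17.9 and 11.4 CPM in KO and 25.3, 55.4 and 45.4 CPM in KOBLM (edgeR p = 0.255, exact permutation p = 0.1). Mvd, the decarboxylase of mevalonate diphosphate, was 21.7, 25.7 and 35.5 CPM in KO and 36.8, 61.6 and 40.3 CPM in KOBLM (edgeR p = 0.431, exact permutation p = 0.1).

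In fatty acid synthesis, none of the 3 genes passed the threshold in any comparison. Acly, the enzyme that makes cytosolic acetyl-CoA from citrate, was 180.2, 107.6 and 122.5 CPM in Con, 92.9, 104.1 and 369.8 CPM in BLM, 190.2, 143.5 and 96.1 CPM in KO, and 90.3, 116.6 and 135.7 CPM in KOBLM. Apart from BLM 3, its 11 libraries lay between 90.3 and 190.2 CPM. Fasn, the fatty acid synthase, was 5.5, 34.5 and 56.5 CPM in Con, 13.8, 43.7 and 211.6 CPM in BLM, 22.6, 29.3 and 87.2 CPM in KO, and 30.6, 0 and 25.8 CPM in KOBLM. Fasn was highest in BLM 3 and at 0 counts in KOBLM 2. The third gene, Acaca, the carboxylase that makes malonyl-CoA, ranged from 0.4 to 63.7 CPM.

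Among the desaturases and elongases, Elovl5 fell with BLM by the same threshold. Elovl5, which extends polyunsaturated fatty acids and was the most abundant of the 35 genes, was 195.0, 181.8 and 378.5 CPM in Con, 114.1, 74.8 and 10.0 CPM in BLM, 165.7, 49.4 and 212.2 CPM in KO, and 127.9, 235.5 and 122.9 CPM in KOBLM. All BLM libraries were below all Con and all KOBLM libraries. The means were 252 ± 110 CPM in Con and 66.3 ± 52.6 CPM in BLM, and the log2 fold change was -1.80 (SE 0.80, 95% interval -3.52 to -0.08, edgeR p = 0.0411, adjusted p = 0.995, exact permutation p = 0.1). For KOBLM against BLM it was 1.27 (SE 0.79, 95% interval -0.42 to 2.96, edgeR p = 0.131, exact permutation p = 0.1), which did not pass. The call against Con held without BLM 3 and was lost without Con 3 (log2 fold change -1.42) or without BLM 2 (-1.96). Within KO and KOBLM, Elovl5 was lowest in KO 2 and highest in KOBLM 2, the libraries that were also the low and the high one for Siglecf. The sum of the 16 macrophage markers was likewise lowest of the KO group in KO 2 (16289.0 CPM). In KOBLM 1, 2 and 3 that sum was 11415.5, 25166.2 and 27015.5 CPM, so it was highest in KOBLM 3, where Elovl5 was lowest of the group. Whether macrophage content had a part in the values was not tested. Elovl5 lies at chr9:77917364-77984519 on the plus strand (GRCm38) with 8 exons.

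Scd1, the stearoyl-CoA desaturase that makes oleate, was 114.6, 231.1 and 36.8 CPM in Con, 19.6, 32.1 and 208.5 CPM in BLM, 45.4, 52.7 and 7.3 CPM in KO, and 65.6, 0 and 49.8 CPM in KOBLM. BLM 1 and BLM 2 were below every Con library, whereas BLM 3 was near the highest Con value. The log2 fold change of -0.75 for BLM against Con did not pass (95% interval -3.90 to 2.39, edgeR p = 0.615, exact permutation p = 0.5). Its neighbour on chromosome 19, Scd2, ranged from 3.6 to 139.4 CPM. Fads1, another desaturase of polyunsaturated fatty acids, was 12.8, 4.2 and 0 CPM in Con, 42.1, 45.6 and 98.4 CPM in BLM, 0.2, 56.4 and 0 CPM in KO, and 23.8, 0 and 27.2 CPM in KOBLM. All BLM libraries were above all Con and all KOBLM libraries (log2 fold changes 3.39 and -1.66 for BLM against Con and KOBLM against BLM, edgeR p = 0.194 and 0.487, exact permutation p = 0.1 for each), and KO 2 was the only KO library above the floor. Elovl1 and Elovl6, elongases of saturated chains, ranged from 68.4 to 353.7 CPM and from 1.2 to 143.1 CPM, each with its highest value in BLM 3.

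**Figure D2:**
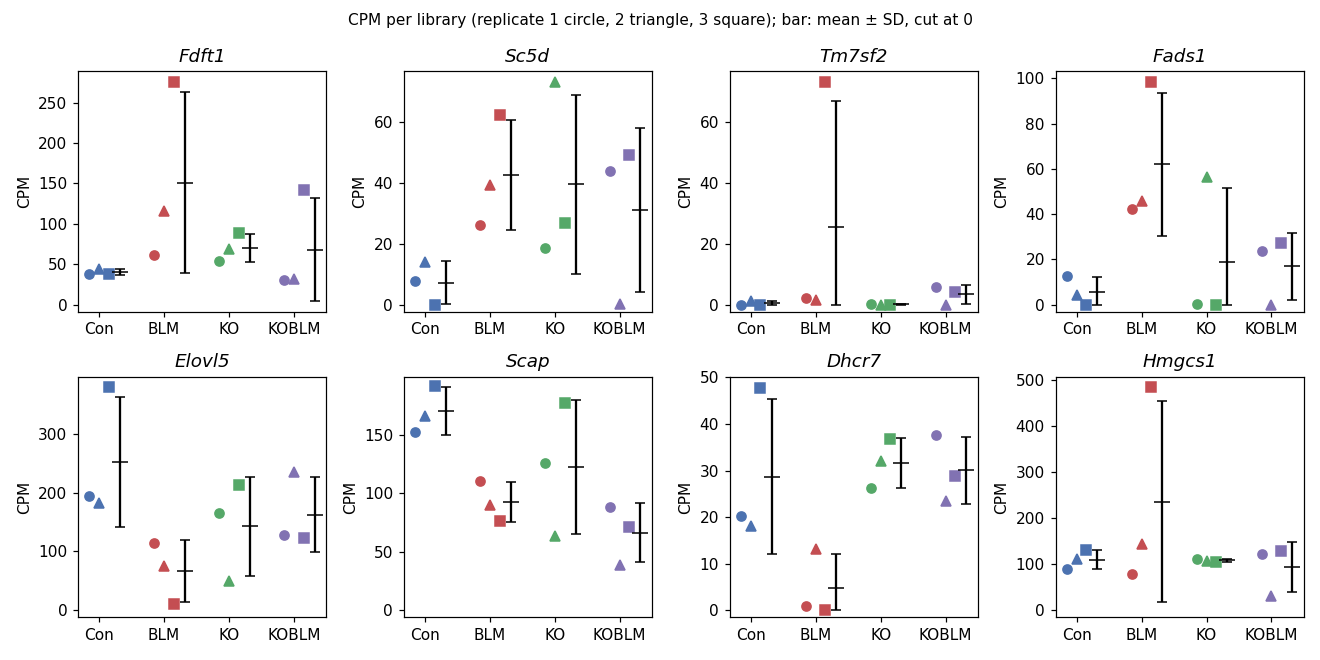
Points give CPM (linear axes) of 8 genes in each library of the 4 groups (circle, triangle and square for replicates 1, 2 and 3), and bars give the mean ± SD of 3 libraries. The BLM points do not overlap the Con points in 7 of the panels. In Hmgcs1, the exception, BLM 3 alone lies far above the rest. The 7 are all the genes without overlap among the 34 tested (4 higher and 3 lower in BLM). Their share of the panels therefore follows from the choice of genes. Of all tested genes, 5.32% were higher and 11.8% lower in BLM without overlap.

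Among the genes of acyl activation and phospholipid synthesis, no comparison passed the threshold. Acsl4, which couples arachidonate to CoA, was 77.7, 88.9 and 101.7 CPM in Con, 62.5, 77.3 and 152.8 CPM in BLM, 63.6, 57.0 and 82.2 CPM in KO, and 71.6, 105.2 and 162.1 CPM in KOBLM. The 4 groups overlapped for Acsl4, and the interval of the log2 fold change of BLM against Con was -1.17 to 1.32. Pcyt1a, which encodes the rate-setting enzyme of phosphatidylcholine synthesis and carries the second sterol element shown above, was 67.0, 108.0 and 30.5 CPM in Con, 91.6, 82.6 and 15 CPM in BLM, 92.2, 94.6 and 32 CPM in KO, and 92.1, 14.9 and 134.7 CPM in KOBLM. Its lowest library in each group (Con 3, BLM 3, KO 3 and KOBLM 2) was the one with counts on the fewest genes. The part of this in the values was not tested. The interval for BLM against Con was -2.07 to 2.01. Chka and Chpt1, the first and last enzymes of the choline route, ranged from 0 to 45.2 CPM and from 0 to 71.3 CPM. Gpam, a glycerol phosphate acyltransferase, had 56 counts in Con 2, 28 and 93 counts in BLM 1 and BLM 2, 6 counts in KO 1, and no count in the other 8 libraries. With all 3 KOBLM libraries at 0 counts, its mean in KOBLM was at least 15.9-fold lower than in BLM when the floor of 3 counts was applied to each library (exact permutation p = 0.4).

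The comparison of BLM with Con asked how the injury changed these genes in cells that carry p300. Of the 34 genes tested, Fdft1 rose and Elovl5 fell, against 4.27% of all 13054 tested genes that passed the same threshold (2.19% higher and 2.08% lower). The 2 of 34 are near this background. Without BLM 3, KO 2 and KOBLM 2, 2 genes passed as well, Elovl5 (log2 fold change -1.27) and Scd1 (-2.18), both lower, while 8% of the 13860 genes tested in that setting passed (1109 genes). The libraries of the 2 groups did not overlap for 4 genes that were higher in BLM (Fdft1, Tm7sf2, Sc5d and Fads1) and for 3 that were lower (Scap, Dhcr7 and Elovl5), against 5.32% and 11.8% of all tested genes. For Tm7sf2 this rested on library size, since Con 2 and BLM 2 had 12 counts each. The log2 fold change was above 0 for 23 genes and below 0 for 11, with a median of 0.32 against -0.08 for all tested genes. By role, the median was 0.05 for SREBP control, 0.43 for the mevalonate pathway, 0.71 for the sterol branch, 0.67 for fatty acid synthesis, -0.02 for desaturation and elongation and 0.08 for phospholipid synthesis. The median over the 34 genes ranged from -0.05 to 0.57 when single libraries were left out. Marker sums moved with the same groups, since the macrophage sum was 15144.0 to 28989.0 CPM in Con and 1254.9 to 14211.8 CPM in BLM, and the mesenchymal sum (7 genes) 66.5 to 436.3 CPM in Con and 976.1 to 1468.0 CPM in BLM. The sums of ATII markers (637.3 to 2188.0 CPM in Con and 453.7 to 576.1 CPM in BLM), T cell markers (805.7 to 1126.7 and 0 to 57.3) and B cell markers (25.5 to 61.0 and 0 to 10.6) were lower in every BLM library, and those of ATI markers (163.0 to 268.4 and 487.3 to 720.6) and airway markers (23.4 to 127.7 and 216.8 to 246.1) were higher. The part of these markers in the results was not tested.

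**Figure D3:**
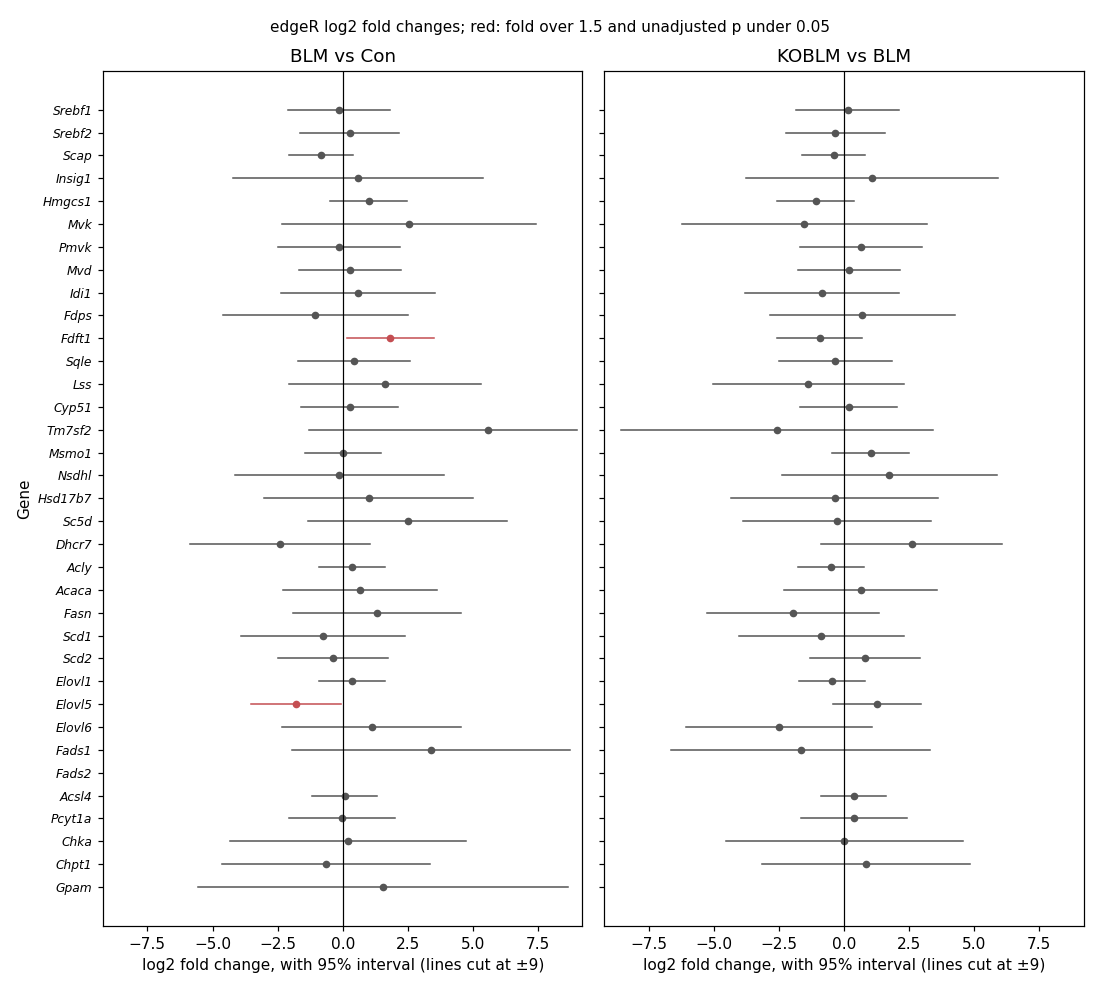
Points and lines give the edgeR log2 fold change and its 95% interval of 34 genes for BLM against Con (left) and KOBLM against BLM (right), with Fads2 not tested and Gpam left out on the right, where KOBLM was at 0 counts. Red marks Fdft1 and Elovl5, the genes past the threshold for BLM against Con, and every other interval includes 0.

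The comparison of KOBLM with BLM asked what the loss of p300 in ATII cells changed in the sorted cells after injury. It shares the BLM libraries with the comparison above. None of the 34 genes passed the threshold (edgeR, at an unadjusted p under 0.05 and so also at an adjusted one), against 3.16% of all tested genes (1.39% higher and 1.78% lower). DESeq2 counted 2, beside 755 of all 13054 tested genes. Dhcr7 and Elovl5 were higher in KOBLM and Fads1 lower, each without overlap of the libraries, against 6.04% and 4.98% of all tested genes in those directions. The log2 fold change was above 0 for 16 genes and below 0 for 18, and the median of -0.30 (the same with Gpam at its bound, against 0.10 for all genes) lay between -0.59 and 0.17 when single libraries were left out, so its sign depended on the library. Mesenchymal markers summed to 133.1 to 608.7 CPM in KOBLM, below BLM in every library, as were ATI markers (98.5 to 373.5 CPM) and airway markers (21.3 to 112.0 CPM). The sort antigens Cd74 and Epcam together (619.9 to 992.3 CPM in KOBLM and 1051.9 to 2283.2 CPM in BLM) were also lower in every KOBLM library. So were the pluripotency genes (0.8 to 4.4 CPM in KOBLM and 14.3 to 2671.8 CPM in BLM). T cell markers (218.2 to 871.8 CPM) and B cell markers (12.1 to 42.7 CPM) were above BLM in every library, and the part of these markers in the values was not tested.

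The comparison of KO with Con asked what the loss of p300 in ATII cells changed in the sorted cells without injury. Cells of other types kept p300, and their share of the RNA was not measured, here or in the other comparisons. None of the 34 genes passed (edgeR and DESeq2), against 1.44% of all tested genes (0.536% higher and 0.904% lower). Mvk, Fdft1 and Sc5d were higher in all KO than in all Con libraries, against 2.18% of all tested genes, and no gene of the 34 was lower in this way, against 7.56%. For Fdft1, the means were 40.1 ± 3.64 CPM in Con and 70.5 ± 17.2 CPM in KO (log2 fold change 0.91, SE 0.76, edgeR p = 0.249, exact permutation p = 0.1). The median log2 fold change was 0.25 against -0.09 for all tested genes, and it lay between -0.03 and 0.35 when single libraries were left out, below 0 without KO 2. The 5 T cell markers summed to 225.4 to 592.6 CPM in KO and to 805.7 to 1126.7 CPM in Con, the endothelial markers to 44.2 to 351.8 CPM in KO and 358.4 to 719.4 CPM in Con, and their part in the values was not tested.

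The comparison of KOBLM with KO asked how the injury changed these genes without p300 in ATII cells. None of the 34 passed (edgeR), against 1.69% of all tested genes (1.16% higher and 0.529% lower). DESeq2 counted 1, beside 460 of all 13054 tested genes. Pmvk and Mvd were higher and Mvk lower without overlap, against 3.95% and 2.87% of all tested genes. The median log2 fold change was 0.02 against 0.08 for all genes, and it lay between -0.48 and 0.31 when single libraries were left out, so that its sign depended on the library. The 5 neutrophil markers summed to 354.3 to 808.2 CPM in KO and to 1365.2 to 2144.5 CPM in KOBLM, and their part was not tested.

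The interaction, the effect of BLM in KO mice minus its effect in mice with p300, tested whether p300 status of ATII cells changed the response to injury. None of the 34 genes passed (edgeR and DESeq2), against 2.82% of all tested genes (1.51% higher and 1.31% lower). Elovl5 had the lowest p of the 34, with a difference of 2.04 on the log2 scale (SE 1.11, 95% interval -0.34 to 4.42, edgeR adjusted p = 1), from -1.80 in mice with p300 and 0.24 without it. Fdft1 differed by -1.84 (SE 1.07, 95% interval -4.13 to 0.45, edgeR adjusted p = 1), from 1.83 and -0.01. Without BLM 3, KO 2 and KOBLM 2, 2 genes passed, the desaturases Scd1 (3.36) and Scd2 (2.28), while 4.39% of the 13860 genes tested in that setting passed. The differences of Elovl5 and Fdft1 were 0.83 and -0.84 there, and neither passed. When single libraries were left out, Elovl5 passed without BLM 1, Dhcr7 without BLM 2 and Fdft1 without KOBLM 3. In these fits 3.46%, 3.31% and 3.34% of all tested genes passed. With all libraries, intervals of this width neither showed nor closely bounded a dependence on p300 for Elovl5 or Fdft1.

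Single libraries were high or low across many of the genes. KOBLM 3 had 27 of the 34 tested genes (79.4%) above their own median over 12 libraries, against 53.2% of all tested genes in that library. This included all 10 genes of the sterol branch and all 6 of the mevalonate pathway. The same library had the highest Insig1 (43.7 CPM). KOBLM 2 had 9 of 34 (26.5%) above the median, against 36.8% of all tested genes, and 11 of 34 at or under the floor, against 36.4%. BLM 3 had the highest value of the 12 for 11 of the 34 genes, while 9 of the 34 were at or under the floor there, against 53.9% of all tested genes. Within groups, the median coefficient of variation of the 34 genes was 0.571 in Con, 0.853 in BLM, 0.536 in KO and 0.753 in KOBLM, against 0.576, 0.905, 0.822 and 0.821 for all tested genes.

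**Figure D4:**
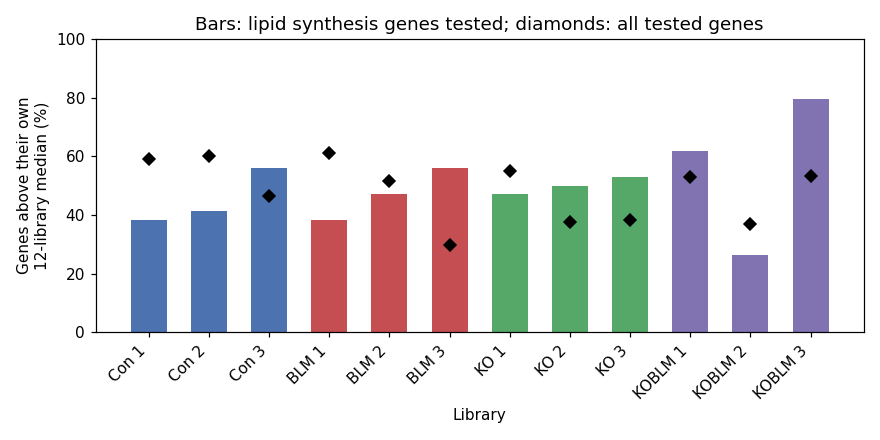
Bars give the percentage of the 34 tested lipid synthesis genes above their own median over the 12 libraries, coloured by group, and diamonds give the same for all 13054 tested genes. KOBLM 3 is the highest bar, at 79.4%, and KOBLM 2 the lowest, at 26.5%, in the same group.

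A further 66 genes of the same pathways were examined, of which 63 were among the measured symbols and 53 were tested. For BLM against Con, 1 was higher and 2 were lower, beside 4.27% of all tested genes (2.19% higher and 2.08% lower). The median log2 fold change was -0.47, with 18 genes above 0 and 35 below, against -0.08 for all tested genes. Lpin1, the phosphatase that makes diacylglycerol from phosphatidate, was 437.6, 270.7 and 553.1 CPM in Con, 25.1, 48.7 and 53.9 CPM in BLM, 451.2, 70.3 and 539.1 CPM in KO, and 78.8, 447.3 and 54.4 CPM in KOBLM. It fell in BLM without overlap (log2 fold change -3.29, SE 0.84, edgeR p = 0.00156, adjusted p = 0.995, exact permutation p = 0.1). KO 2 and KOBLM 2 were far from the other libraries of their groups for Lpin1, in the same directions as for Siglecf. Cept1, which makes phosphatidylcholine and phosphatidylethanolamine from diacylglycerol, was 107.9, 147.9 and 96.1 CPM in Con and 46.8, 50 and 29.5 CPM in BLM, and it fell too (-1.43, edgeR p = 0.0364, exact permutation p = 0.1), a call lost without Con 1, Con 2 or BLM 1. Pgs1, an enzyme of cardiolipin synthesis, was 19.9, 13.3 and 6.9 CPM in Con and 31.7, 38.4 and 132.0 CPM in BLM, and it rose (2.22, edgeR p = 0.0398, exact permutation p = 0.1), a call that held only without BLM 1 among the 6 fits that left out a library and was 1.54 without BLM 3.

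For KOBLM against BLM, 4 of the 53 further genes were higher and none lower, beside 1.39% and 1.78% of all tested genes, with a median of 0.56 against 0.10 for all tested genes. Soat1, which esterifies cholesterol for storage, was 109.4, 88.1 and 107.2 CPM in BLM and 158.0, 254.3 and 372.6 CPM in KOBLM (log2 fold change 1.47, edgeR p = 0.0231, adjusted p = 1, exact permutation p = 0.1). Its call held without KOBLM 2 (1.54) and was lost without BLM 2 or KOBLM 3. Hacd3, a dehydratase of fatty acid elongation, was 34.3, 17.7 and 0.2 CPM in BLM and 43.9, 196.5 and 72.6 CPM in KOBLM, and Cept1 was 74.7, 147.0 and 115.2 CPM in KOBLM. Lpin1 (2.24, edgeR p = 0.0150), Cept1 (1.45, edgeR p = 0.0337) and Hacd3 (2.54, edgeR p = 0.0478), also rose (exact permutation p = 0.1 for each), and each of these 3 calls was lost without KOBLM 2, at 0.79, 1.27 and 1.78. They were also lost without BLM 1 for Lpin1, without BLM 1 or KOBLM 3 for Cept1, and without BLM 2 or KOBLM 3 for Hacd3. Among the rest, Agpat3, an acyltransferase of glycerolipid synthesis, was 61.0, 29.2 and 48.3 CPM in Con and 18.0, 1.8 and 4.5 CPM in KO, and it fell in KO against Con (-2.40, edgeR p = 0.0461, exact permutation p = 0.1), a call that held in 1 of 6 fits that left out a library and was -1.93 without KO 2. Lbr, which encodes a sterol reductase that is also the lamin B receptor, was 20.8, 14.3 and 5.4 CPM in KO and 109.5, 44.5 and 48.4 CPM in KOBLM, and it rose in KOBLM against KO (2.27, edgeR p = 0.0169, exact permutation p = 0.1), a call lost without KO 3 or KOBLM 1. With all 12 libraries, no adjusted p under 0.05 was obtained for any of the 13054 genes in any comparison. Without BLM 3, KO 2 and KOBLM 2, 59 of 13860 genes had one for BLM against Con, among them Lpin1 (-3.33, SE 0.46, edgeR adjusted p = 0.0138) and none of the 34 genes, and Lpin1 was 0.83 for KOBLM against BLM (edgeR adjusted p = 1).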

How the data were processed

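RNA of sorted CD74+ EpCAM+ cells was prepared with the QuantSeq 3′ kit and sequenced as single 75-base reads. The authors deposited raw counts per gene for each library, and the submitters' processing notes name Bowtie2, edgeR and mm10. The counting program and its use of strand are not given in the sources used here. Of 23282 entries, 79 with repeated symbols (35 symbols, none of them among the lipid synthesis genes) were summed, which left 23238. Counts were filtered with filterByExpr by group (minimum count 10, minimum total 15; 13054 genes kept), scaled by TMM and fitted with edgeR 4.0.16 (R 4.3.3) quasi-likelihood tests in a model of the 4 groups with 8 residual degrees of freedom. CPM was taken from library totals of 7005005 to 11153154 counts without TMM. The biological coefficient of variation was 1.44, which limits the precision. A gene was called at a fold over 1.5 and an unadjusted p under 0.05, the study's threshold, and adjusted p-values are Benjamini-Hochberg values over all tested genes. All tests were two-sided. Each SE was derived from the log2 fold change and the quasi-likelihood F of its test. Intervals are 95% intervals from that SE and the total degrees of freedom of the fit. Group differences in CPM were also compared by exact permutation tests.

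The genes, the further list and the tests were chosen with earlier results of these data known. Values per library are given for genes past the threshold (for the further list, in the groups compared), for the most abundant gene of each role, and for Srebf1, Srebf2, Scap, Insig1, Fasn, Scd1 and Pcyt1a. Mvk, Pmvk, Mvd, Sc5d, Dhcr7, Tm7sf2 and Fads1 were added after their values were seen, for libraries that did not overlap between groups. Gene positions are from GENCODE M21 (GRCm38, the same build as mm10), and promoter windows are from RefSeq. The scripts were tested on simulated counts. Alternatives were DESeq2 1.42.0 and its size factors, scaling by library size, no filter on low counts, separate models of 2 groups, a replicate block, adjusted p-values and the omission of libraries. ChIP data were not analysed here.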

Additional observations from a re-analysis of the deposited data

Results flagged for a closer look

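Of the 53 further lipid genes tested, 2 passed the threshold (fold over 1.5 and unadjusted p under 0.05), beside 2.82% of all tested genes, for the interaction, the effect of BLM in KO mice minus its effect in mice with p300. Lpin1 differed by 2.45 on the log2 scale (SE 1.11, edgeR adjusted p = 1), from log2 fold changes of -3.29 with p300 and -0.84 without it. Without KO 2 and KOBLM 2, the libraries with the low and the high Siglecf of their groups, the difference was 0.54. Acss2, an acetyl-CoA synthetase, differed by 10.91 (SE 5, edgeR adjusted p = 1). It had no counts in any BLM library, 72 and 128 counts in Con 2 and Con 3, 42 in KO 1, 63 and 81 in KOBLM 1 and KOBLM 3, and none elsewhere, so the size of this difference depends on the fit, and it passed in 3 of 12 fits that left out a library.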

How the results depend on the processing

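With 3 libraries per group and a biological coefficient of variation of 1.44, most intervals span several-fold changes, which is what limits these comparisons. Of the 34 genes tested, 2 passed for BLM against Con (Fdft1 and Elovl5), beside 4.27% of all 13054 tested genes. DESeq2 gave 3 (also Tm7sf2), beside 947 of all 13054 tested genes, and adjusted p gave 0. A model of the 2 groups alone gave 1 (Fdft1), beside 380 of all genes tested in it. With single libraries left out, 0 to 2 passed, beside 2.08% to 5.45% of all tested genes. None passed without Con 3, and Elovl5 passed without Con 1 or BLM 3. Dhcr7 passed without BLM 2, Elovl5 and Tm7sf2 without Con 2, and Elovl5 and Fdft1 without BLM 1. For KOBLM against BLM, 0 passed, with 2 by DESeq2 (Dhcr7 and Elovl6), beside 755 of all 13054 tested genes. With single libraries left out, 0 to 1 passed, beside 1.67% to 3.34% of all tested genes (Dhcr7 without BLM 2, Gpam without BLM 3, Fdft1 without KOBLM 3). For KO against Con, 0 passed, also in each of the 6 fits that left out a library, beside 0.627% to 3.2% of all tested genes in those fits. For KOBLM against KO, 0 passed, with 1 by DESeq2 (Tm7sf2), beside 460 of all 13054 tested genes. With single libraries left out, 0 to 1 passed (Fads1 without KO 2), beside 0.741% to 2.88% of all tested genes. For the interaction, 0 passed. With single libraries left out, 0 to 1 passed, beside 2.36% to 4.82% of all tested genes (Elovl5 without BLM 1, Dhcr7 without BLM 2, Fdft1 without KOBLM 3). Other scalings and no filter on low counts left these counts within 1.5 times, and Fdft1 and Elovl5 kept their direction in every alternative run.

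After the data were seen, KO 2 and KOBLM 2 were omitted, and then BLM 3 as well. Without KO 2 and KOBLM 2, 1 gene passed for KO against Con (Fads1, beside 0.83% of all 13969 tested genes) and 1 for KOBLM against KO (Fads1, beside 1.32%). Without all 3 libraries, 1 passed for KOBLM against BLM (Scd2, 1.76, beside 3.37% of all 13860 tested genes), 2 for KO against Con (Fads1 and Scd1, beside 3.31%), 2 for KOBLM against KO (Fads1 and Scd2, beside 5.88%) and 2 for the interaction (Scd1, 3.36, and Scd2, 2.28, beside 4.39%). For BLM against Con, 2 passed there too, Elovl5 (-1.27) and Scd1 (-2.18), beside 8%. The causes of these shifts were not tested.

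Replicate numbers did not pair the libraries, since the deviations of 18 pairs with the same number correlated at -0.117 to 0.096 and 4 of 12 libraries correlated best with their own number. With a replicate block, 0 of the 34 genes passed for BLM against Con, beside 394 of all tested genes.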
